A study of Homo sapiens with 2 samples.

Results

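The 7 mature miRNAs described here are best known from the nervous system: hsa-miR-7-5p, hsa-miR-128-3p, hsa-miR-138-5p, hsa-miR-218-5p, hsa-miR-9-5p, hsa-miR-9-3p and hsa-miR-124-3p. They were picked by name from 2588 mature miRNA names counted in small RNAs recovered from lysate of MDA231 cells, a human triple-negative breast cancer line. No library of the input lysate was among the samples, so the levels below are not levels in the cells. The bait library held small RNAs recovered on amylose resin that carried the long non-coding RNA MACC1-AS1, transcribed in vitro with MS2 hairpins and held by a fusion of maltose-binding protein and MS2 coat protein. The no-bait library came from the same parental line with no RNA substrate, per the labels. There was 1 library of each kind, so none of the differences below could be checked against replicates and p-values are left out. Because the control carried no RNA at all, MACC1-AS1, its MS2 hairpins and any other RNA on the resin cannot be told apart as the reason for a difference.

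A mature miRNA is cut from 1 arm of a hairpin precursor and guides Argonaute proteins to RNAs that pair with its seed, bases 2 to 8. In the nervous system, miR-9 and miR-124 promote the change from progenitor to neuron, and both arms of miR-9 act on parts of the REST repressor complex. miR-128 dampens neuronal excitability in mice, miR-138 restricts dendritic spine size in rat neurons, miR-218 is abundant in mouse motor neurons, and miR-7 is known from neuroendocrine cells and for its dense pairing with the circular RNA CDR1as. Several of these miRNAs are also made outside the brain.

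The sequences of 6 of the miRNAs were taken from RefSeq (GRCh38.p14) and are shown because the seeds decide what each could pair with. No sequence of miR-124-3p was taken, so the seed comparisons below leave it out. Capitals mark the seed.
hsa-miR-7-5p: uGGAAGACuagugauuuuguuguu
hsa-miR-128-3p: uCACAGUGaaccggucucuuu
hsa-miR-138-5p: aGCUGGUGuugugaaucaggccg
hsa-miR-218-5p: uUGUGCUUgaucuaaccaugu
hsa-miR-9-5p: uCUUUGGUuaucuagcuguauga
hsa-miR-9-3p: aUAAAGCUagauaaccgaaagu
All 6 seeds differ from each other. Among the other names in the table with a RefSeq sequence, miR-216a-3p and miR-3681-3p had the seed of miR-128-3p, with 0 counts in both libraries, and none had the seed of any of the others.

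Each of these mature sequences can come from more than 1 hairpin, so its reads do not tell which locus was active. Exon below means overlap with an exon of any annotated transcript, so such a hairpin may be intronic in other transcripts of the gene. The miR-9 hairpins lie on GRCh38 at chr1:156420341-156420429 in an intron of C1orf61, at chr5:88666853-88666939 in an exon of LINC00461 and at chr15:89368017-89368106 in an intron of MIR9-3HG. miR-128 comes from introns of R3HDM1 (chr2:135665397-135665478) and ARPP21 (chr3:35744476-35744559). miR-218 comes from introns of the axon guidance genes SLIT2 (chr4:20528275-20528384) and SLIT3 (chr5:168768146-168768255). The hairpins of miR-138, at chr3:44114212-44114310 and chr16:56858518-56858601, overlapped no other annotated gene. Those of miR-7 lie at chr9:83969748-83969857, which overlaps an annotated exon of HNRNPK, a ubiquitously expressed RNA-binding protein gene, at chr15:88611825-88611934 outside other genes, and at chr19:4770670-4770779 in an intron of MIR7-3HG.

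The bait library held 1047269 counts on miRNA names and the no-bait library 269716, a 3.88-fold difference, so the no-bait counts set the precision of the ratios. Values are reads per 1000000 (RPM), scaled by each library's total on miRNA names, and every interval is an exact 95% interval that covers counting error only. A list of 5 names taken for basal breast lines (miR-21-5p, miR-29a-3p, miR-100-5p, miR-221-3p and miR-222-3p) held 47.9% of counts with bait and 59.5% without. Most of these counts were of miR-100-5p (310370 with bait, 122128 without) and miR-21-5p (174986 and 26251). miR-221-3p had 5860 and 1188, and miR-222-3p 8407 and 10842. Whether the listed names are particular to basal lines was not tested, so the sum is not read as a basal signature. The ratios of the 5 names, in the order listed, were 1.72, 5.999, 0.655, 1.27 and 0.1997, so the sum joined members that moved in opposite directions. Luminal markers held 0.0181% with bait and 0.0111% without, and blood markers 0.0389% and 0.0831%. Each of these sums rested mostly on 1 name. miR-200b-3p had 144 of 190 luminal counts with bait and 28 of 30 without, and miR-141-3p had 0 in both. miR-486-5p had 386 of 407 blood counts with bait and 214 of 224 without, and miR-144-3p and miR-223-3p had 0 in both. Muscle and liver markers held less in both libraries. The neuron marker list, 7 of whose 10 names are the miRNAs described here, held 0.603% with bait and 0.466% without, and its members miR-124-3p and miR-153-3p had 0 counts in both. Of the glial markers, miR-219a-5p had 0 counts in both libraries and miR-338-3p had 1 count with bait and 0 without. The name neural therefore refers to the tissue these miRNAs are best known from and is not a cell type seen in these libraries.

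Together the 7 miRNAs held 6307 of the bait counts, 0.602% (0.588% to 0.617%), and 1239 of the no-bait counts, 0.459% (0.434% to 0.486%). The ratio of these shares was 1.31 (1.23 to 1.39). That modest ratio joined members that behaved differently. miR-138-5p and miR-218-5p were more than 10-fold higher with bait and miR-9-5p about 2-fold higher, the ratios of miR-128-3p and miR-7-5p lay close to 1, and miR-9-3p and miR-124-3p were at or near 0 counts.

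**Figure D1:**
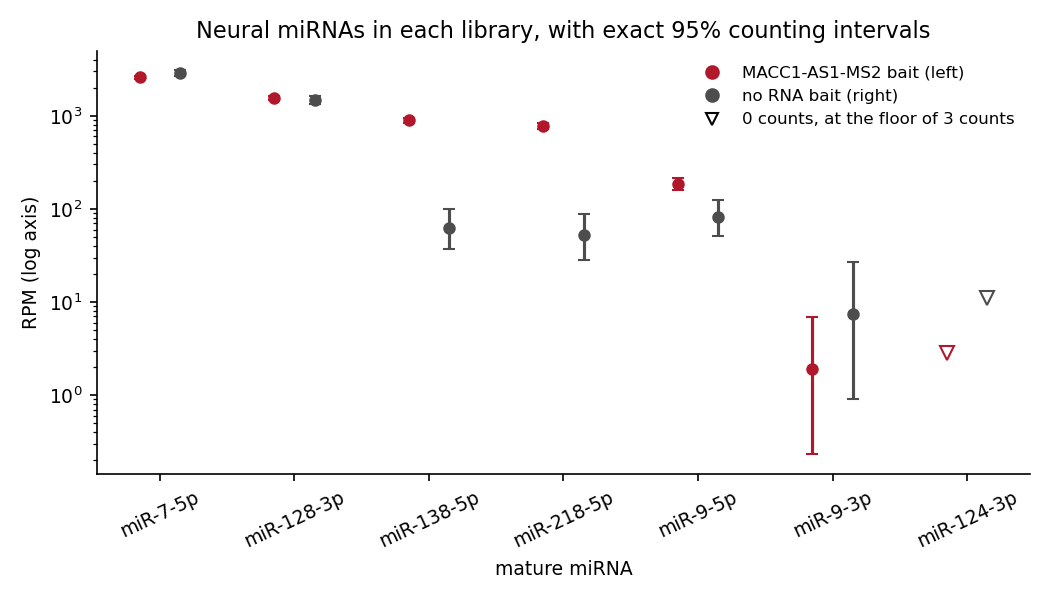
RPM of the 7 neural miRNAs on a log axis in the bait library (red, left of each pair) and the no-bait library (grey, right), with exact 95% counting intervals and 1 library each; open triangles mark 0 counts, drawn at the floor of 3 counts. miR-138-5p and miR-218-5p stand at 896 and 779 RPM with bait, far above their no-bait values, while the values of miR-7-5p and miR-128-3p nearly coincide.

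miR-7-5p was the most abundant of the set in both libraries. It had 2724 counts with bait, 2601 RPM (2504 to 2700), and 781 counts without, 2896 RPM (2696 to 3106). Its rank among all names was 34 with bait and 27 without. The ratio was 0.898 (0.829 to 0.974) with library totals, 0.999 with edgeR TMM factors and 1.20 with DESeq2 size factors, so its direction turned with the scaling and none is given.

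miR-128-3p was second in both libraries. It had 1632 counts with bait, 1558 RPM (1484 to 1636), and 403 counts without, 1494 RPM (1352 to 1647). The intervals overlap and the ratio was 1.04 (0.935 to 1.17). It was 0.954 when the 5 commonest miRNAs were dropped from the totals and 1.40 with DESeq2 size factors, so here too no direction is given.

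miR-138-5p had 938 counts with bait, 896 RPM (839 to 955), and 17 counts without, 63.03 RPM (36.7 to 101). The 2 libraries were far apart, with a ratio of 14.2 (8.83 to 24.5). The miRNA ranked 49 among all names with bait and 143 without.

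miR-218-5p had 816 counts with bait, 779 RPM (727 to 834), and 14 counts without, 51.9 RPM (28.4 to 87.1). Its ratio was 15.01 (8.89 to 27.6), the highest of the set, and its interval overlapped nearly all of that of miR-138-5p. It ranked 51 with bait and 159 without.

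miR-9-5p had 195 counts with bait, 186 RPM (161 to 214), and 22 counts without, 81.6 RPM (51.1 to 123). The ratio of 2.28 (1.47 to 3.73) lay just above the fold used for a call, and the lower bound of its interval lay below it. It ranked 100 with bait and 135 without.

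The last pair of members could not be compared. miR-9-3p had 2 counts with bait and 2 without, 1.91 RPM (0.231 to 6.90) and 7.42 RPM (0.898 to 26.8), and its ratio of 0.258 had an interval of 0.0187 to 3.55. miR-124-3p, the most neuron-restricted of these miRNAs, had 0 counts in both libraries. The floor of 3 counts allows it up to 2.86 RPM with bait and 11.1 RPM without.

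A miRNA was called higher or lower when it had at least 30 counts in the libraries together, a ratio of at least 2 or at most 0.5, and an interval that excluded 1. Of the 7 miRNAs, 5 reached the count minimum, and of these 3 were called higher and 0 lower. Over all 231 miRNAs that reached the minimum, 153 (66.2%) were called, 91 (39.4%) of them higher and 62 (26.8%) lower, so a call is common in these libraries and 3 of 5 is no result about the set. No test was possible beside these counts, since there was 1 library per group. The 231 are names, and some names carried identical counts. miR-199a-3p and miR-199b-3p each had 176 counts with bait and 92 without, and both were called lower. miR-365a-3p and miR-365b-3p each had 42 with bait and 0 without, and both were called higher. The median ratio of the 5 was 2.28 and that of all 231 was 1.46. By ratio, miR-218-5p stood 11th and miR-138-5p 12th of the 231, miR-9-5p was at place 94, miR-128-3p at place 139 and miR-7-5p at place 140. These places set 8 miRNAs with 0 no-bait counts at their ratio against the floor, which lay below the ratio of miR-138-5p. The intervals of these 8 have no upper limit, so their true places are not known. Were all 8 above both members, miR-218-5p would stand at place 19 and miR-138-5p at place 20.

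**Figure D2:**
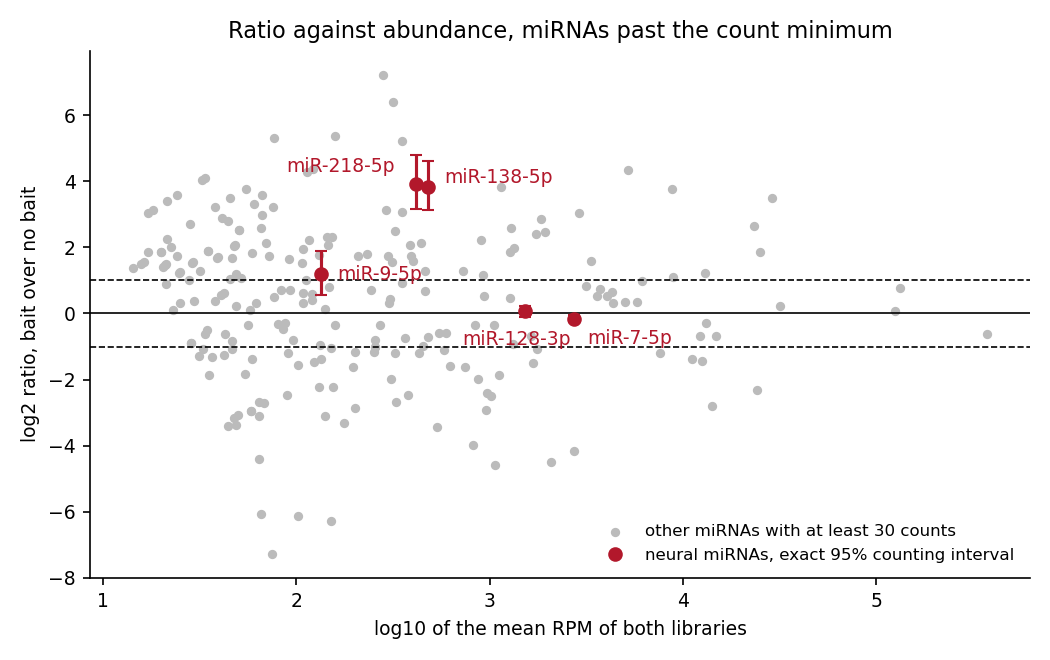
Log2 ratio of bait over no bait (vertical) against the log10 mean RPM of both libraries (horizontal) for the 231 miRNAs with at least 30 counts, those with 0 counts in a library being drawn at the ratio against the floor of 3 counts; the neural miRNAs are red with 95% counting intervals, and dashed lines mark 2-fold. miR-218-5p and miR-138-5p lie near 4, miR-9-5p near 1, and miR-128-3p and miR-7-5p near 0 at higher abundance.

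Comparing members within a library removes the scaling between libraries. The 5 miRNAs give 10 pairs, and the fold between bait and no bait had an interval that excluded 1 in 9 of them, without adjustment for the number of pairs. The exception was miR-218-5p against miR-138-5p, which moved by 1.06-fold (0.487 to 2.33), a range that does not show that they acted alike. miR-7-5p exceeded miR-138-5p 2.90-fold with bait and 45.9-fold without. Relative to miR-7-5p, miR-138-5p was thus 15.8-fold higher with bait (9.74 to 27.4) and miR-218-5p 16.7-fold higher (9.82 to 30.9). miR-9-5p gained less, 2.54-fold relative to miR-7-5p (1.62 to 4.18), and miR-138-5p gained 6.23-fold over it (3.08 to 12.7). miR-128-3p and miR-7-5p kept nearly the same proportion, 0.599 with bait and 0.516 without, a fold of 1.16 (1.01 to 1.33).

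With bait the order was miR-7-5p, miR-128-3p, miR-138-5p, miR-218-5p and miR-9-5p, and the intervals of neighbours did not overlap. Without bait miR-9-5p stood ahead of miR-138-5p and miR-218-5p, but the intervals of these 3 overlapped, so their order is not resolved at 14 to 22 counts. Of the counts of the set, miR-138-5p took 14.9% with bait (14.0% to 15.8%) and 1.37% without (0.801% to 2.19%). miR-218-5p took 12.9% with bait (12.1% to 13.8%) and 1.13% without (0.619% to 1.89%). The share of miR-7-5p was 43.2% with bait and 63.03% without.

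**Figure D3:**
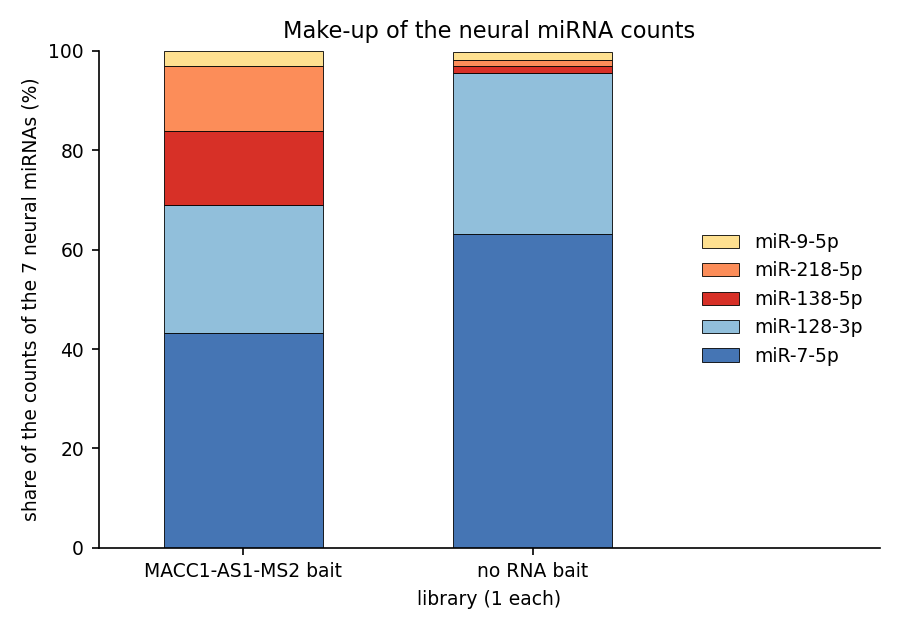
Share of the counts of the 7 neural miRNAs taken by each, in percent, for the bait library (left) and the no-bait library (right), 1 library each; miR-9-3p and miR-124-3p are too small to draw. miR-138-5p and miR-218-5p fill 14.9% and 12.9% of the bait column and 1.37% and 1.13% of the no-bait column.

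The opposite arms of these hairpins were scarce. Of 9 other arms, 6 had 0 counts in both libraries, and none reached 30 counts. miR-138-1-3p, the other arm of the chromosome 3 hairpin of miR-138, had 26 counts with bait and 1 without, and its ratio of 6.70 had an interval of 1.10 to 275. miR-138-2-3p, the same arm of the chromosome 16 hairpin, had 0 counts in both. Both sequences are shown because the 4 of 22 bases in capitals, which differ between them, are what separates the loci.
hsa-miR-138-1-3p: gcuaCuucacAacaccagggCC
hsa-miR-138-2-3p: gcuaUuucacGacaccagggUU
The reads of the 3p arm were thus listed under the chromosome 3 locus alone, while the 5p arm is identical at both loci and gives no such division.

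The remaining arms had at most 2 counts in either library. miR-128-1-5p had 2 counts with bait and 2 without, and miR-7-1-3p had 1 and 1. miR-128-2-5p, miR-124-5p, miR-218-1-3p, miR-218-2-3p and miR-7-2-3p had 0 in both. The dominant arm was 5p for miR-7, miR-9, miR-138 and miR-218, and 3p for miR-128. For miR-9 the 5p arm exceeded the 3p arm 97.5-fold with bait and 11.0-fold without, but the fold of 8.86 between these values had an interval of 0.603 to 125. For miR-138, miR-128 and miR-7 the interval of the corresponding fold also included 1, so no shift between arms was detectable at this depth.

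Of 20 other brain-enriched miRNAs in the table, 8 had 0 counts in both libraries, among them miR-153-3p and miR-219a-5p, and 3 reached 30 counts. Of these 3, 2 were called higher and 0 lower, beside the 39.4% called higher over all miRNAs. Both higher calls were arms of the activity-regulated miR-132. The bait library held 87 counts of miR-132-5p and the no-bait library 2, which gives a ratio of 11.2 (3.01 to 93.97). For miR-132-3p the counts were 45 with bait and 4 without. Its ratio of 2.90 (1.06 to 11.1) no longer met the rule when the 5 commonest miRNAs were dropped from the totals. The ratio of miR-330-3p was 0.715 (0.455 to 1.16), from 75 counts with bait and 27 without.

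Another 3 of these names held at least 10 counts. miR-129-5p had 4 counts in the bait library and 16 in the shallower no-bait library. Its ratio of 0.0644 (0.0157 to 0.200) lay below 1, unlike those of miR-138-5p and miR-218-5p, but it had too few counts for a call. miR-212-5p, from the same cluster as miR-132, had 15 counts with bait and 2 without, and miR-326 had 10 with bait and 0 without. The summed share of the 20 names was 0.0232% with bait (0.0204% to 0.0263%) and 0.0208% without (0.0157% to 0.0270%), and these intervals overlap.

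miR-27a-3p and miR-27b-3p share a run of 8 bases with miR-128-3p, shifted by 1 base, and so have overlapping sets of pairing sites. They are shown with that run in capitals.
hsa-miR-27a-3p: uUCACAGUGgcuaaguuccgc
hsa-miR-27b-3p: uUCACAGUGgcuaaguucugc
In miR-128-3p, shown above, the same run covers bases 1 to 8. The ratios of the relatives were 3.01 (2.73 to 3.32) for miR-27a-3p and 1.68 (1.55 to 1.81) for miR-27b-3p, both above that of miR-128-3p, and their intervals did not overlap with its own.

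The annotated MACC1-AS1 transcript of 639 nt (GENCODE 29) held no 7-base match to the seed of any of the 6 miRNAs with a sequence. The searched motifs, on the transcript strand only, were GTCTTCC for miR-7-5p, CACTGTG for miR-128-3p, CACCAGC for miR-138-5p, AAGCACA for miR-218-5p, ACCAAAG for miR-9-5p and AGCTTTA for miR-9-3p. Such a match was rare in general, found for 4 (1.97%) of the 203 miRNAs past the count minimum with a RefSeq sequence. Shortening the match to bases 2 to 7 gave 1 member with a match, TCTTCC of miR-7-5p at positions 347 to 352 of the transcript, beside 19 (9.36%) of the 203. Of the 81 miRNAs called higher with a sequence, 3 (3.70%) had a 7-base match and 12 (14.8%) a 6-base match. The isoform and the MS2 part of the bait used in the experiment were not analysed here.

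The members differed in base composition. miR-138-5p had the highest share of G and C, 56.5%, and miR-9-3p the lowest, 31.8%, with miR-218-5p at 38.1%, miR-7-5p at 33.3%, miR-9-5p at 34.8% and miR-128-3p at 47.6%. The median over the 81 miRNAs called higher with a sequence was 45.5%, and that over the 51 called lower was 52.4%. Over the 71 called neither it was 50%. The quartiles overlapped, at 36.4% to 50% for those called higher and 44.5% to 59.5% for those called lower. A link between composition and ratio was not tested.

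The miRNAs most like each member were sought among 218 past the count minimum with counts in both libraries, by distance in log2 RPM over the 2 libraries. Members were left out of the 218, so miR-138-5p and miR-218-5p could not be named as neighbours of each other. For miR-138-5p and miR-218-5p the nearest was miR-16-5p in both cases, at distances of 0.561 and 0.600, with 629 RPM with bait and 74.2 RPM without. The next was miR-455-5p in both cases, with 524 RPM with bait and 59.3 RPM without. The ratios of these neighbours, 8.49 for miR-16-5p and 8.84 for miR-455-5p, were below the 14.2 of miR-138-5p and the 15.01 of miR-218-5p. miR-501-3p and miR-22-5p were nearest to miR-9-5p, miR-22-3p and miR-99a-5p to miR-128-3p, and miR-125a-5p and miR-146a-5p to miR-7-5p.

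Scaling moved all ratios together. The median log2 ratio of the 231 miRNAs was 0.55 and shifted by 0.15 with TMM factors, by 0.42 with DESeq2 size factors and by -0.13 when the 5 commonest miRNAs were dropped from the totals. Under these 3 scalings the same members were called, with miR-218-5p between 13.7 and 20.1, miR-138-5p between 12.996 and 19.04 and miR-9-5p between 2.09 and 3.06. When the interval bound itself had to pass 2-fold, miR-9-5p was no longer called and 2 members remained. In the authors' deposited table the log2 fold changes of the 5 members were 3.91 for miR-218-5p, 3.83 for miR-138-5p, 1.19 for miR-9-5p, 0.0607 for miR-128-3p and -0.155 for miR-7-5p, which rest on the same counts.

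**Figure D4:**
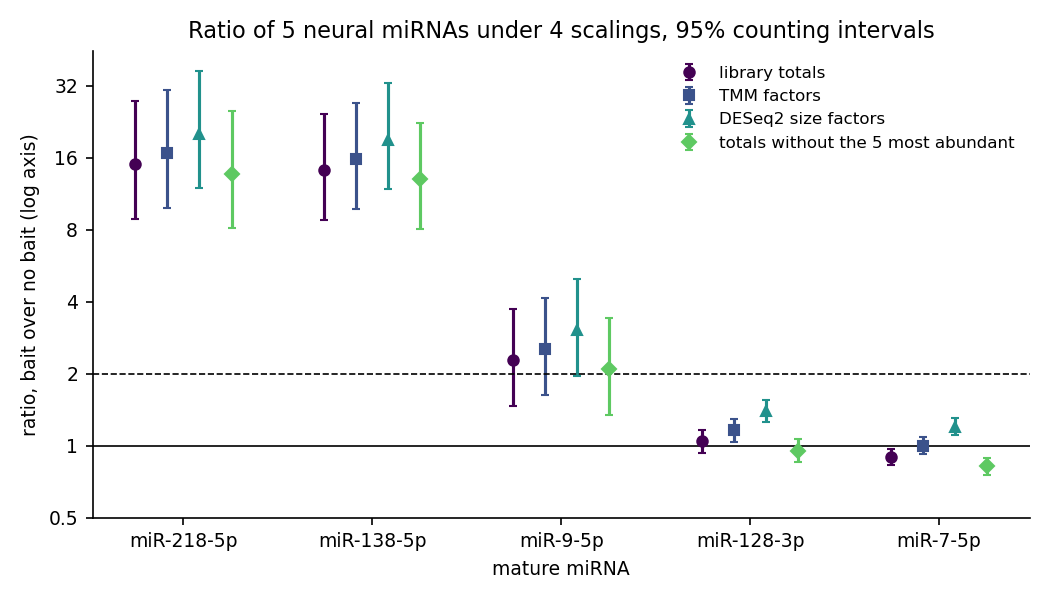
Ratio of bait over no bait on a log axis for the 5 neural miRNAs with at least 30 counts under 4 scalings, with exact 95% counting intervals; the solid line marks a ratio of 1 and the dashed line 2. miR-218-5p and miR-138-5p stay above 8 in each, with their whole intervals. The ratio of miR-9-5p stays above 2 in each, but the lower bounds of its intervals, from 1.34 to 1.96, lie below 2. The ratios of miR-128-3p and miR-7-5p fall on either side of 1.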

How the data were processed

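Counts of mature miRNAs were taken from 1 bait and 1 no-bait library, as the labels group them. The authors deposited whole-number counts per name, and an RPM that equals the count scaled by the library's total within 0.00994. The authors' own table adds log2 fold changes, computed from RPM with the bait library on top. Its deposited p-values come from an unnamed test and were not used. The submitters' processing notes list BWA. Its version, the miRNA reference, the build and the handling of shared reads were not given in the sources used here. Ligation and amplification preferences differ between sequences, so levels of different miRNAs are approximate.

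Ratios used library totals and exact conditional binomial intervals, and shares used Clopper-Pearson intervals (scipy 1.17.1). Folds between pairs and arms used exact conditional odds-ratio intervals. A count of 0 was set to 3 counts per library in ratios. Alternatives were TMM (edgeR 4.0.16) and DESeq2 1.42.0 size factors, totals without the 5 most abundant miRNAs, the deposited RPM, other count minimums and 0.5 added counts. The script was tested on simulated data. Named were all members, their other arms, brain-enriched miRNAs with at least 10 counts (those at 0 named among them were chosen after their values were seen), markers, seed relatives and the 2 nearest miRNAs per member. Members and lists were chosen with earlier results of these data known. Hairpins come from GENCODE 29 on GRCh38.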

Additional observations from a re-analysis of the deposited data

How the results depend on the processing

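Of 105 alternative values, 87 stayed within the 95% counting interval of the reported ratio or within 1.5 times the reported count, and 18 did not. Some of the 87 had no room to move, so the tally is no measure of robustness. Calls among the other arms stayed at 0 in settings where no such arm reached the count minimum. Ratios from the deposited RPM rest on the same counts and totals. None of the called ratios changed direction. The 87 include miR-128-3p, which crossed 1 to 0.954 without the 5 commonest miRNAs in the totals. They also include the fall to 2 higher neural miRNAs, against 3, and to 64 higher and 42 lower of all miRNAs, against 91 and 62, when the interval bound had to pass 2-fold. The moves with scaling follow from the changed factor. DESeq2 size factors put miR-128-3p at 1.40, and miR-7-5p was 0.999 with TMM factors, 1.20 with those of DESeq2 and 0.822 when the 5 commonest miRNAs were dropped from the totals. The ratio of the summed shares was 1.46, 1.76 and 1.20 under the same 3 scalings. Requiring 100 counts gave 59 higher and 37 lower calls over all miRNAs, and no count filter gave 100 lower, as fewer or more miRNAs were tested. A minimum of 10 counts, and no count filter, each added 1 higher call among the other arms (miR-138-1-3p) and 1 lower call among the other brain-enriched miRNAs (miR-129-5p). Of the 2 higher calls among these brain-enriched miRNAs, 1 was left without the 5 commonest in the totals, 1 when the interval bound had to pass 2-fold, and 0 at a minimum of 100 counts. The 6-base seed match gave 1 member. No paired analysis was possible because each group had 1 library, and no replicate could be left out. The 14, 17 and 22 no-bait counts of miR-218-5p, miR-138-5p and miR-9-5p limit the precision of their ratios, and the spread between replicates is unknown.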
